A study of Homo sapiens with 12 samples.

Results

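The genes described here are 10 components and targets of bone morphogenetic protein (BMP) signalling, followed through treatment of 2 human multiple myeloma lines with dihydroartemisinin (DHA). They are the inhibitors of DNA binding ID1, ID2, ID3 and ID4, the inhibitory SMADs SMAD6 and SMAD7, the receptor-activated SMADs SMAD1 and SMAD5, and the BMP receptors BMPR1A and BMPR2. They were taken by name from 2 gene expression tables, and all 10 were found among 61806 rows of the LP-1 table and 19130 rows of the U266 table. The list was drawn up with the response of these lines to DHA already known, so values of the 10 genes under DHA and DMSO are given as a description, with no test. Levels are FPKM, fragments scaled by transcript length and library size. Other genes entered the tests where FPKM reached 1 in 3 or more of a line's 6 libraries. ID4 and SMAD6 did not reach that level in LP-1, which left 8 of 10, and ID4, SMAD6 and SMAD1 did not in U266, which left 7 of 10.

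Both lines, LP-1 and U266, are established and derive from cancerous plasma cells, which secrete antibody. They are labelled wild type. DHA, an artemisinin derivative, was given at its IC50 for 12 h, and controls received a matching amount of the solvent DMSO. No concentration is stated. There were 4 groups of 3 libraries, LP-1 with DMSO, LP-1 with DHA, U266 with DMSO and U266 with DHA. Each line is a single culture model. The labels do not say that the 3 libraries of a group are separate cultures, so p-values here reflect spread among libraries that may be technical.

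BMPs bind a complex of type I receptors such as BMPR1A and type II receptors such as BMPR2, both of them serine/threonine kinases. The active complex phosphorylates SMAD1, SMAD5 and SMAD9, which join SMAD4, enter the nucleus and switch on target genes. ID1, ID2 and ID3 are among the best known of these targets, and so are SMAD6 and SMAD7, which feed back to block the receptors and the receptor-activated SMADs. ID proteins have a helix-loop-helix domain but no basic region. They pair with the E proteins TCF3, TCF4 and TCF12 and keep them off DNA. In the B lineage, E proteins drive B cell development, and BMPs are known to slow the growth of myeloma cells or to kill them in culture.

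The start regions of ID1 and SMAD6 are shown as examples. Both genes were lower in every DHA library of LP-1, as were ID2, ID3 and BMPR1A, whose windows are not printed. No link between a motif and the change with DHA was tested. The windows of ID1 and SMAD6 hold matches to motifs searched and hardly overlap the first GENCODE exon. Each is the 250 bases before the RefSeq start on GRCh38.p14, printed 5′ to 3′ on the plus strand, and capitals mark motif matches. ID1 lies at chr20:31605039-31605288 and SMAD6 at chr15:66701986-66702235.
ID1: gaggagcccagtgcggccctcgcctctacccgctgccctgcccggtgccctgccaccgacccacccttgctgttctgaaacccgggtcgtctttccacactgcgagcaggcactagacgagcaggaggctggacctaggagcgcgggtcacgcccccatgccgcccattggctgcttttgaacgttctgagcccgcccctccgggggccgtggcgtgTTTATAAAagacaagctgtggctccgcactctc
SMAD6: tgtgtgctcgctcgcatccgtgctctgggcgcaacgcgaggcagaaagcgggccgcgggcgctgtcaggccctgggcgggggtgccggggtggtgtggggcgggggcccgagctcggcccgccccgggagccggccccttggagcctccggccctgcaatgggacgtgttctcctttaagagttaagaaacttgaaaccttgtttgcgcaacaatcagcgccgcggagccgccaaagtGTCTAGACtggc
The motifs were chosen after the promoters had been looked at and were searched on both strands. They are the SMAD palindrome GTCTAGAC, the GC-rich BMP SMAD site GGCGCC, the cAMP response element TGACGTCA, the TATA box TATAAA and the E-box CANNTG. None of these overlapped another motif in these sequences. The ID1 window holds overlapping TATAAA matches on the 2 strands, 33 to 26 bases before the start, and such a match is present in 10.7% of 35116 RefSeq promoter windows of the same length. SMAD6 holds GTCTAGAC 12 to 5 bases before its start, which 0.182% of windows do. Among the other members, the ID2 window has 1 E-box (CANNTG is in 61.8% of windows), the ID3 window has no match to any of the motifs searched, and GGCGCC (16.4% of windows) is found in windows of SMAD1 and BMPR2. RefSeq starts were found for all 10 genes, and TGACGTCA (1.65% of windows) was in none of their windows. These matches describe letters in the windows. The ID2 and ID3 windows lie downstream of the first GENCODE start of those genes and are not printed. BMPR1A, whose window has TATAAA and CANNTG matches, is not printed either.

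The LP-1 libraries had 13.5 to 17.6 M reads in genes and the U266 libraries 10.3 to 21.8 M, as estimated from the steps between low FPKM values, and read numbers below are estimates on that basis. A gene of 2 kb with 3 reads would show 0.0855 to 0.111 FPKM in an LP-1 library or 0.069 to 0.146 FPKM in a U266 library, a limit that covers counting error only. Of 8 plasma cell markers, 7 had a mean of at least 1 FPKM in every group, and other cell types' markers were low, with PECAM1 in LP-1 and HBB in U266 as the highest of them. The plasma cell markers summed to 931 to 943 FPKM with DHA against 996 to 1360 FPKM with DMSO in LP-1. In U266 the sums were 706 to 773 against 1040 to 1060 FPKM. Single markers went both ways in LP-1. SDC1 was at 4.84 to 5.72 FPKM with DHA against 29.1 to 32.6 FPKM, and IRF4 at 244 to 260 against 64.2 to 92.1 FPKM. One library in each line stood apart. In LP-1 DMSO replicate 3, genes with exons under 2 kb were higher than in the other DMSO libraries by a median log2 of 0.21, and genes over 6 kb had a median of -0.28. U266 DHA replicate 3 held 18399 genes above 0, against 14682 to 14992 in the other libraries of the line, and 2032 genes were above 0 in it alone at a median of 0.493 FPKM. Its summed markers reached 9.01 FPKM over 5 B cell genes and 5.42 FPKM over 4 endothelial genes, against 0.944 to 1.58 and 0.166 to 0.596 FPKM in U266 controls. The sum of 5 stromal markers was higher in every U266 DHA library, at 11.8, 5.52 and 6.93 FPKM against 3.54, 3.01 and 3.23 FPKM with DMSO. Of these, COL3A1 was the highest, at 3.30 to 6.01 FPKM with DHA and 1.94 to 2.36 FPKM with DMSO. The part of these libraries and markers in the results was not tested, and values without them are given where they matter.

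ID1, ID2 and ID3 were lower in every DHA library of LP-1, and in U266 the lower values were those of ID3. With the other members, 5 of 10 genes in LP-1 had all DHA libraries below all DMSO libraries (ID1, ID2, ID3, SMAD6 and BMPR1A), SMAD1 had all of them above, and 4 overlapped. In U266 ID3 and BMPR1A lay below, none lay above and 8 overlapped. For comparison, groups did not overlap in 58.8% of 12514 tested genes in LP-1, with DHA higher in 30.2% and lower in 28.6%, and in 51.5% of 10422 in U266, with DHA higher in 27.6% and lower in 23.9%. The median log2 change over the 10 genes was -0.32 in LP-1 and -0.08 in U266, against 0.01 and 0.02 over all tested genes. These counts describe genes chosen with this contrast in view, and nothing is read from them about the group. In these bulk samples fewer cells of a type and less RNA per cell cannot be told apart.

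**Figure D1:**
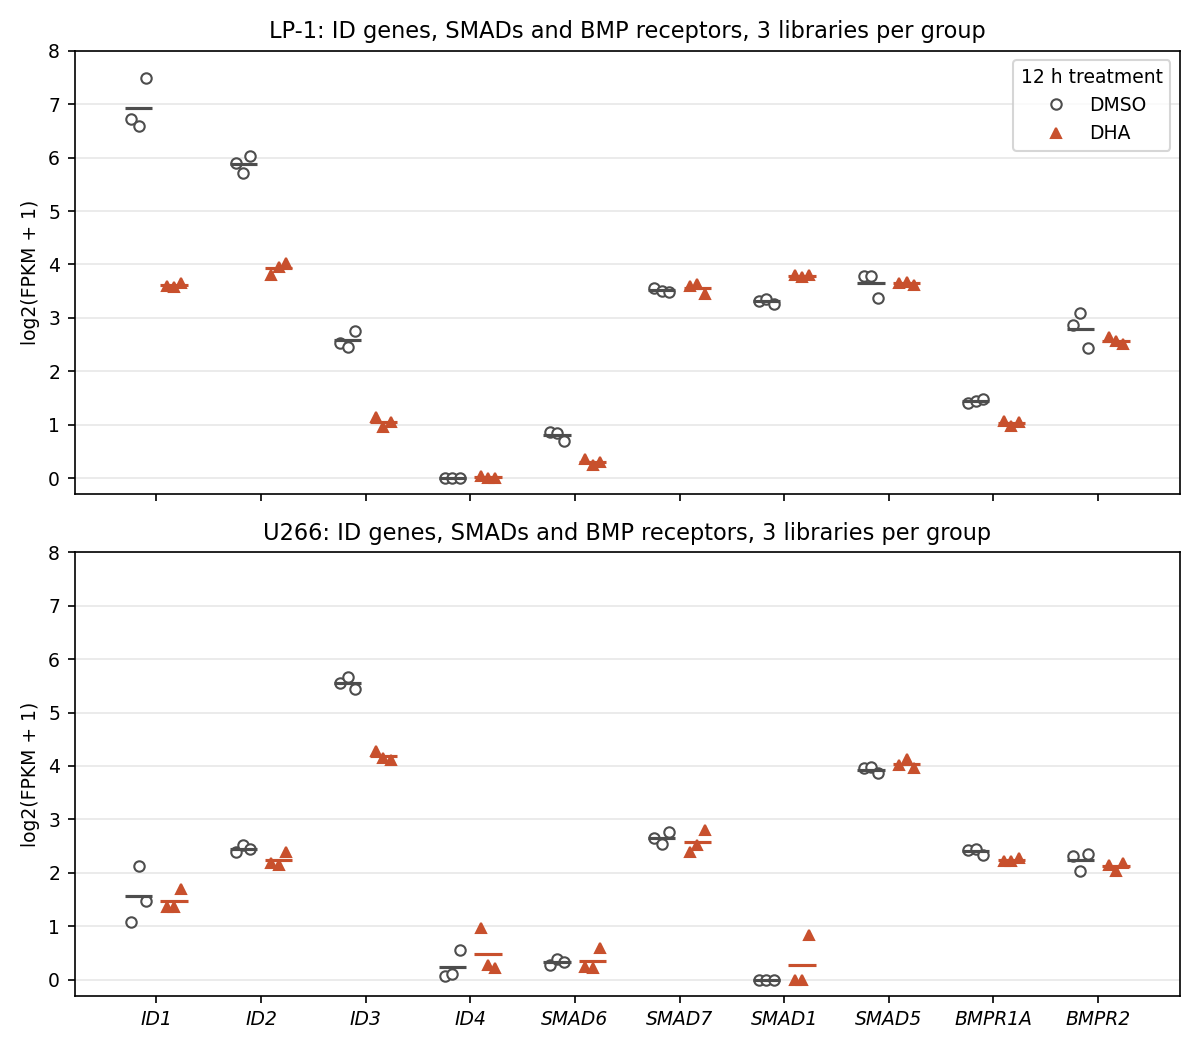
Level of each of the 10 genes in each library, as log2(FPKM + 1), in LP-1 (upper panel) and U266 (lower panel). Open circles are DMSO libraries, triangles are DHA libraries, and short lines are means of 3. ID1, ID2 and ID3 are separated between treatments in LP-1, while ID3 is the clearly separated ID gene in U266.

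ID1 is a dominant-negative partner of E proteins and a direct BMP target in many cell types. It lies on chromosome 20 from 31605283 to 31606515, with all of its 1233 bases in exons by GENCODE v29. In LP-1 it stood at 104, 95.4 and 179.6 FPKM in the DMSO libraries and at 11.04, 10.98 and 11.6 FPKM in the DHA libraries. The DMSO group was high with 1 library well above the other 2, the DHA group was tight, and they did not overlap. The log2 change on log2(FPKM + 1) was -3.33, an 11.3-fold lower mean, and -3.05 without DMSO replicate 3, the library with the highest value. These levels rest on 203 to 3421 reads per library. In U266 ID1 was at 1.11, 3.34 and 1.79 FPKM with DMSO and at 1.57, 1.58 and 2.23 FPKM with DHA. The groups overlapped, with a log2 change of -0.09 that ran from -0.33 to 0.19 as each library was left out, and with 20 to 90 reads behind each value.

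ID2 shares the helix-loop-helix fold and is used by lymphoid lineages to hold back E proteins. It lies on chromosome 2 from 8678845 to 8684453. In LP-1 it measured 58.4, 51.5 and 64.6 FPKM with DMSO, against 13.0, 14.5 and 15.2 FPKM with DHA. Every DHA library was thus far below the lowest DMSO library, and the spread within each group was small beside the gap. The log2 change was -1.95, a 4.08-fold lower mean. In U266 it measured 4.23, 4.73 and 4.44 FPKM with DMSO and 3.56, 3.40 and 4.23 FPKM with DHA. DHA replicates 1 and 2 lay below all controls, while DHA replicate 3 was just above the lowest of them, so the groups overlapped by that library (log2 change -0.21, and -0.29 without it). The antisense transcript ID2-AS1 overlaps ID2 and averaged 0.247 FPKM with DMSO and 0.133 FPKM with DHA in LP-1. Whether the counting used strand is not stated, so reads of these genes cannot be told apart.

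ID3, which restrains E proteins in lymphocytes, was the ID gene with all DHA libraries below all DMSO libraries in both lines. It is on chromosome 1 from 23557918 to 23559794, on the minus strand. In U266, where it was the most abundant of the 10 genes, it read 46.1, 49.6 and 42.5 FPKM with DMSO and 18.4, 16.8 and 16.2 FPKM with DHA. The groups were far apart and each was tight, with a log2 change of -1.38, a 2.69-fold lower mean. In LP-1 the levels were 4.78, 4.5 and 5.72 FPKM with DMSO and 1.20, 0.95 and 1.08 FPKM with DHA. Here too no DHA library came near a control, and the mean was 4.64-fold lower, though the DHA values rest on 28 to 32 reads each. The log2 change in LP-1 was -1.53, and -2.11 with a pseudocount of 0.1, since adding 1 to FPKM understates changes of low genes.

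ID4, the ID gene best known from brain and from epithelia, was at or near 0. It is on chromosome 6 from 19837386 to 19840684. LP-1 had 0 FPKM in 5 of 6 libraries and 0.03 FPKM, 1 read, in DHA replicate 1. In U266 it read 0.0449, 0.0781 and 0.471 FPKM with DMSO and 0.95, 0.207 and 0.156 FPKM with DHA, from 2 to 23 reads. The U266 groups overlapped and every library was under 1 FPKM.

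The summed FPKM of ID1 to ID4 shows how much ID transcript each line carried and which gene supplied it. In LP-1 the sum was 168, 151 and 249.9 FPKM with DMSO, and 25.3, 26.4 and 27.9 FPKM with DHA. The mean went from 189.6 ± 52.9 (SD, n = 3) to 26.5 ± 1.32 (SD, n = 3). ID1 made up 65.7% of the sum with DMSO and 42.2% with DHA, and ID2 31.6% and 53.6%. In U266 the sum was 51.5, 57.7 and 49.2 FPKM with DMSO and 24.5, 22.0 and 22.8 FPKM with DHA. ID3 supplied 87.3% of it with DMSO and 74.2% with DHA, ID2 8.48% and 16.2%, and ID1 3.86% and 7.79%. So the treated libraries of LP-1 were led by ID2 and those of U266 by ID3, and all treated sums lay below all control sums in each line. The 2 tables were normalized separately, and levels are not compared between lines.

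**Figure D2:**
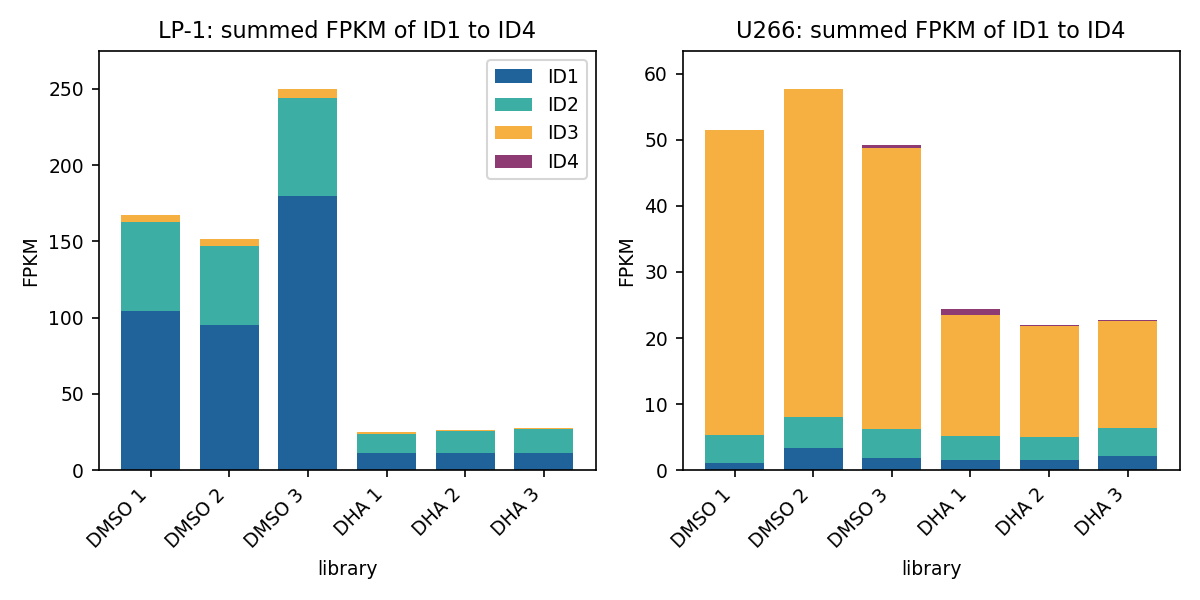
Summed FPKM of ID1, ID2, ID3 and ID4 in each library of LP-1 (left) and U266 (right), as stacked bars from 0, with 1 bar per library and different y axes. ID1 makes up most of the LP-1 control bars and ID3 most of every U266 bar, and all DHA bars are lower than all DMSO bars.

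SMAD6 binds BMP receptors and SMAD1 and damps the pathway that induces it. It spans chromosome 15 from 66702228 to 66782848, and its start region with the SMAD palindrome is printed above. In LP-1 it was low, at 0.83, 0.79 and 0.61 FPKM with DMSO and 0.29, 0.19 and 0.23 FPKM with DHA. All DHA libraries were below all controls, from 28 to 96 reads, and the mean was 3.14-fold lower. On log2(FPKM + 1) the change was -0.49, and with a pseudocount of 0.1 it was -1.33. In U266 it read 0.215, 0.305 and 0.258 FPKM with DMSO and 0.181, 0.162 and 0.506 FPKM with DHA. Here the groups overlapped only through DHA replicate 3, the library with many low genes above 0. The log2 change was 0.02, and -0.10 without that library.

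SMAD7 blocks both BMP and TGF-beta receptors by recruiting ubiquitin ligases to them. It is on chromosome 18 from 48919853 to 48952052. In LP-1 it was 10.8, 10.4 and 10.1 FPKM with DMSO and 11.1, 11.4 and 9.84 FPKM with DHA, a log2 change of 0.04. In U266 it was 5.29, 4.77 and 5.75 FPKM with DMSO and 4.22, 4.72 and 5.98 FPKM with DHA, a log2 change of -0.08. Values overlapped in both lines, with the highest and the lowest value of each line both in DHA libraries. So of the targets described, SMAD7 had treated and control libraries in 1 range, while ID1, ID2, ID3 and SMAD6 were separated in LP-1.

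SMAD1 carries the BMP signal to the nucleus and was the 1 member with every DHA library above every control, in LP-1 only. It spans chromosome 4 from 145481194 to 145558079. LP-1 had 8.98, 9.22 and 8.56 FPKM with DMSO and 12.9, 12.6 and 13.0 FPKM with DHA, from 734 to 1340 reads. All DHA libraries exceeded all controls, by 1.44-fold in the mean and by 0.48 in log2. In U266 SMAD1 was at 0 in all 3 DMSO libraries and in DHA replicates 1 and 2, and at 0.785 FPKM, 78 reads, in DHA replicate 3. That value comes from the library that stood apart, and without it SMAD1 was listed at 0 throughout the line.

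SMAD5 does the same work as SMAD1 and lies on chromosome 5 from 136132845 to 136188747. In LP-1 it was 12.7, 12.8 and 9.31 FPKM with DMSO and 11.5, 11.7 and 11.3 FPKM with DHA, a log2 change of 0.00. The low DMSO value is that of replicate 3, and without it the change was -0.14, with both remaining controls above all DHA libraries. In U266 it was 14.5, 14.7 and 13.6 FPKM with DMSO and 15.1, 16.5 and 14.7 FPKM with DHA, a log2 change of 0.11. Those groups met at the top of the controls. SMAD1 made up 43.7% of the summed FPKM of SMAD1 and SMAD5 in LP-1 with DMSO and 52.7% with DHA, whereas in U266 SMAD1 was listed at 0 outside of DHA replicate 3. Antisense transcripts overlapping SMAD1 and SMAD5 averaged at most 0.14 FPKM in LP-1.

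BMPR1A, a type I receptor kinase, was lower with DHA in both lines. It lies on chromosome 10 from 86756601 to 86932838. In LP-1 it was 1.65, 1.71 and 1.78 FPKM with DMSO and 1.09, 0.98 and 1.06 FPKM with DHA, a 1.64-fold lower mean. The log2 change was -0.41, and -0.67 with a pseudocount of 0.1. In U266 it was 4.37, 4.46 and 4.05 FPKM with DMSO and 3.63, 3.65 and 3.83 FPKM with DHA, a log2 change of -0.17. In both lines every DHA library was below every control, by a narrow margin in U266. Its processed pseudogenes BMPR1AP1 and BMPR1AP2 averaged at most 0.0433 FPKM in LP-1, and how reads shared with them were assigned is not stated.

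BMPR2, the type II receptor that activates BMPR1A, lies on chromosome 2 from 202376936 to 202567751. In LP-1 it was 6.31, 7.56 and 4.39 FPKM with DMSO and 5.21, 4.91 and 4.68 FPKM with DHA, so the groups overlapped through DMSO replicate 3. The log2 change was -0.23, and -0.42 without that library. In U266 it was 4.0, 3.11 and 4.10 FPKM with DMSO and 3.43, 3.11 and 3.53 FPKM with DHA, a log2 change of -0.12 with overlapping groups.

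**Figure D3:**
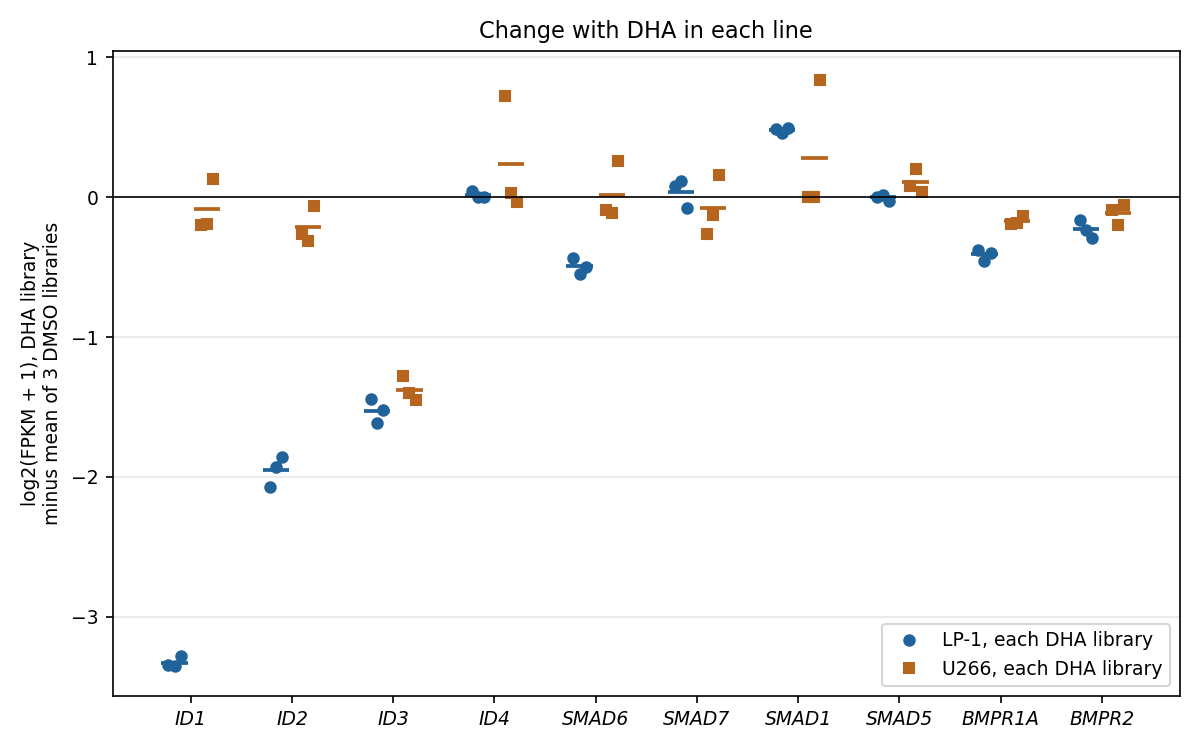
Difference of each DHA library from the mean of the 3 DMSO libraries of its line, in log2(FPKM + 1), for the 10 genes. Circles are LP-1, squares are U266, and lines are means of 3. ID3 is at -1.53 in LP-1 and -1.38 in U266, and ID1 at -3.33 and -0.09. The difference between lines was not tested, and with a pseudocount of 0.1 ID3 in LP-1 is at -2.11.

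The order of the 10 genes by FPKM, which is per length, differed with treatment in LP-1. Its controls ran from ID1 and ID2 through SMAD5, SMAD7, SMAD1, BMPR2, ID3, BMPR1A and SMAD6 to ID4. Of these neighbours, SMAD5 and SMAD7 overlapped in their libraries, and so did BMPR2 and ID3. With DHA the order began with ID2 and SMAD1, and SMAD5, ID1 and SMAD7 followed with overlapping ranges. U266 controls ran from ID3 and SMAD5 through SMAD7 to ID2, BMPR1A, BMPR2 and ID1, which overlapped one with the next, then to the 3 genes near 0. With DHA, ID3 at 16.2 to 18.4 FPKM overlapped SMAD5 at 14.7 to 16.5 FPKM.

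Genes whose pattern over the 12 libraries was nearest to that of a member were found by the Euclidean distance between log2(FPKM + 1) values centred on each line's mean, among 8867 genes kept in both lines. RAB26, YPEL3 and MARCKSL1 were nearest to ID1, at distances of 1.45 to 1.64, larger than for any other member compared, and their LP-1 changes were -2.61, -2.42 and -2.27. LITAF, LGMN and JUNB were nearest to ID2 at 0.398 to 0.483. SH2B2, AQP3 and KLF2 were nearest to ID3 at 0.433 to 0.635, with KLF2 at -1.35 in LP-1 and -1.75 in U266. For BMPR1A the nearest genes were TARDBP, UBE2Q1 and CSTF1, at 0.149 to 0.193. These distances are a description over 12 libraries that fall into 4 groups.

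The partners of the ID proteins were measured with a list of 114 other genes of BMP and TGF-beta signalling. This list too was drawn up with earlier results of these data known, so its tests are read as a description. TCF3, which encodes the E proteins E12 and E47, fell in both lines, from 74.98 ± 6.63 to 46.7 ± 3.27 FPKM in LP-1 (SD, n = 3; log2 change -0.67, limma adjusted p = 0.00335) and from 53.2 ± 1.03 to 33.1 ± 2.98 FPKM in U266 (SD, n = 3; log2 change -0.67, limma adjusted p = 2.14e-05). TCF12 rose, by 0.66 in LP-1 (limma adjusted p = 0.0307) and by 0.40 in U266 (limma adjusted p = 0.000477). TCF4 fell in U266 by 0.29 (limma adjusted p = 0.00893) and did not pass in LP-1 (0.05, limma adjusted p = 0.828). The mean sum of the 3 E proteins was 103.9 FPKM with DMSO and 85.1 FPKM with DHA in LP-1, and 71.3 and 53.2 FPKM in U266. In LP-1 the control sums were 109.81, 113.83 and, in DMSO replicate 3, 87.94 FPKM. The last was close to the DHA sums of 80.81 to 87.87 FPKM. The ratio of summed ID FPKM to summed E-protein FPKM was 1.53, 1.33 and 2.84 in LP-1 controls against 0.292, 0.301 and 0.345 with DHA. In U266 it was 0.728, 0.801 and 0.692 against 0.431, 0.419 and 0.452, and in neither line did the groups overlap. The ratio was not tested. Its separation in part restates that of the ID sums, whose genes were chosen with this contrast in view. USP1, a deubiquitinase that stabilises ID proteins, rose in both lines, by 0.71 in LP-1 (limma adjusted p = 0.00183) and by 0.43 in U266 (limma adjusted p = 0.00017). The LP-1 call of TCF12 was lost without any one of the DHA libraries (limma adjusted p = 0.088 to 0.0939) and with no filter (adjusted p = 0.0738), and the U266 call of USP1 was lost with trimmed-mean scaling (adjusted p = 0.0582). MSC, a helix-loop-helix repressor that binds E proteins, rose in LP-1 from 6.22 ± 0.164 to 57.2 ± 1.41 FPKM (SD, n = 3; log2 change 3.01, limma adjusted p = 1.61e-05) and was below the filter in U266.

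In LP-1, 61 of the 114 listed genes were tested, of which 15 rose, 19 fell and 27 did not pass the limma test, so 55.7% were called against 40.2% of all tested genes (20.2% lower with DHA and the rest higher). In U266, 113 were in the table and 58 were tested, of which 11 rose, 14 fell and 33 did not pass, so 43.1% were called against 40.7% (21.1% higher and 19.6% lower). Since the list was drawn up with earlier results of these data known, nothing is read from its share of calls. The same holds for the counts by role given below, which stand against the same 40.2% and 40.7% of all tested genes. The median log2 change of the list was 0.05 in each line. Of U266 calls over all genes, 51.9% were rises, and with trimmed-mean scaling 33.9% were. The LP-1 rises numbered 6 without DHA replicate 1, 6 without DHA replicate 2 and 7 without DHA replicate 3, and the falls 10 without DMSO replicate 1. The U266 rises numbered 6 with no filter and 7 with trimmed-mean scaling. Without the libraries that stood apart, LP-1 had 19 rises and 21 falls, and U266 had 11 and 14.

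Of 32 ligands listed, 9 were tested in LP-1, with 2 rises and 5 falls, and 11 in U266, with 3 rises and 5 falls. INHBE, the activin beta E subunit, rose from 0.67 ± 0.381 to 13.2 ± 0.537 FPKM in LP-1 (SD, n = 3; log2 change 3.12, limma adjusted p = 0.000161) and from 9.89 ± 0.827 to 57.4 ± 3.37 FPKM in U266 (SD, n = 3; 2.42, limma adjusted p = 4.54e-09). INHBC, the beta C subunit, rose by 1.62 and 1.22 (limma adjusted p = 0.000217 and 1.57e-05). In LP-1, INHBE and INHBC were under 1 FPKM in every DMSO library and entered the tests only through DHA libraries. Leaving out any DHA library of LP-1 took them out of the tests. Both are subunits of the activin branch rather than BMPs. The third ligand rise in U266 was BMP2, named after its values were seen, from 1.83 ± 0.19 to 2.67 ± 0.267 FPKM (SD, n = 3; 0.38, limma adjusted p = 0.0276). That call was lost with no filter, trimmed-mean scaling or quantile normalization (limma adjusted p = 0.0807, 0.087 and 0.53) and without DHA replicate 1 or DMSO replicate 1 or 2 (limma adjusted p = 0.077 to 0.101). BMP2 was below the filter in LP-1, at 0.63 and 1.06 FPKM. BMP8B fell in U266 from 38.5 ± 0.876 to 14.0 ± 0.766 FPKM (SD, n = 3; -1.39, limma adjusted p = 5.54e-08) and BMP6 from 48.0 ± 1.71 to 22.4 ± 1.21 FPKM (SD, n = 3; -1.06, limma adjusted p = 3.4e-07). In LP-1, BMP8B fell by 0.65 (limma adjusted p = 0.0047), and BMP6 did not pass (-0.15, limma adjusted p = 0.205) but did without DMSO replicate 3 (-0.22, limma adjusted p = 0.00857). LEFTY2, a secreted inhibitor of Nodal, fell in both lines (-1.34 and -0.91, limma adjusted p = 0.000471 and 0.000121), and in LP-1 the change was -2.72 with a pseudocount of 0.1. LEFTY2 was under 1 FPKM in every DHA library of LP-1 and entered the tests there only through DMSO libraries.

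Receptors and co-receptors other than the 2 members gave 8 tested genes in each line, with 2 rises in LP-1 and 4 in U266. TGFBR1, the TGF-beta type I receptor, rose in LP-1 (0.65, limma adjusted p = 0.00201) and did not pass in U266 (0.11, limma adjusted p = 0.288). RGMB, a BMP co-receptor, rose in both lines (0.63 and 0.58, limma adjusted p = 0.00362 and 0.00809), and its U266 call was lost with quantile normalization (0.30, limma adjusted p = 0.284). RGMB was under 1 FPKM in every DMSO library of LP-1 and entered the tests there only through DHA libraries. BAMBI, a decoy receptor without a kinase, rose in U266 by 0.94 (limma adjusted p = 2.62e-05) and did not pass in LP-1 (-0.19, limma adjusted p = 0.231). ACVR1B, an activin type I receptor, rose in U266 by 0.57 (limma adjusted p = 0.015, and adjusted p = 0.0797 with no filter). Its DHA libraries were at 3.88, 4.26 and 6.68 FPKM against 2.75 to 3.19 FPKM with DMSO, and without DHA replicate 3 the change was 0.37 (limma adjusted p = 0.014). At -0.20 in LP-1 ACVR1B passed only without DMSO replicate 3 (-0.34, limma adjusted p = 0.0222). ACVR2B did not pass in either line (0.06 and 0.07), and ACVR2A (0.21) and TGFBR2 (0.23) did not in LP-1. ACVR1, a BMP type I receptor, was below the filter in both lines, at means of 0.72 and 0.85 FPKM in LP-1.

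**Figure D4:**
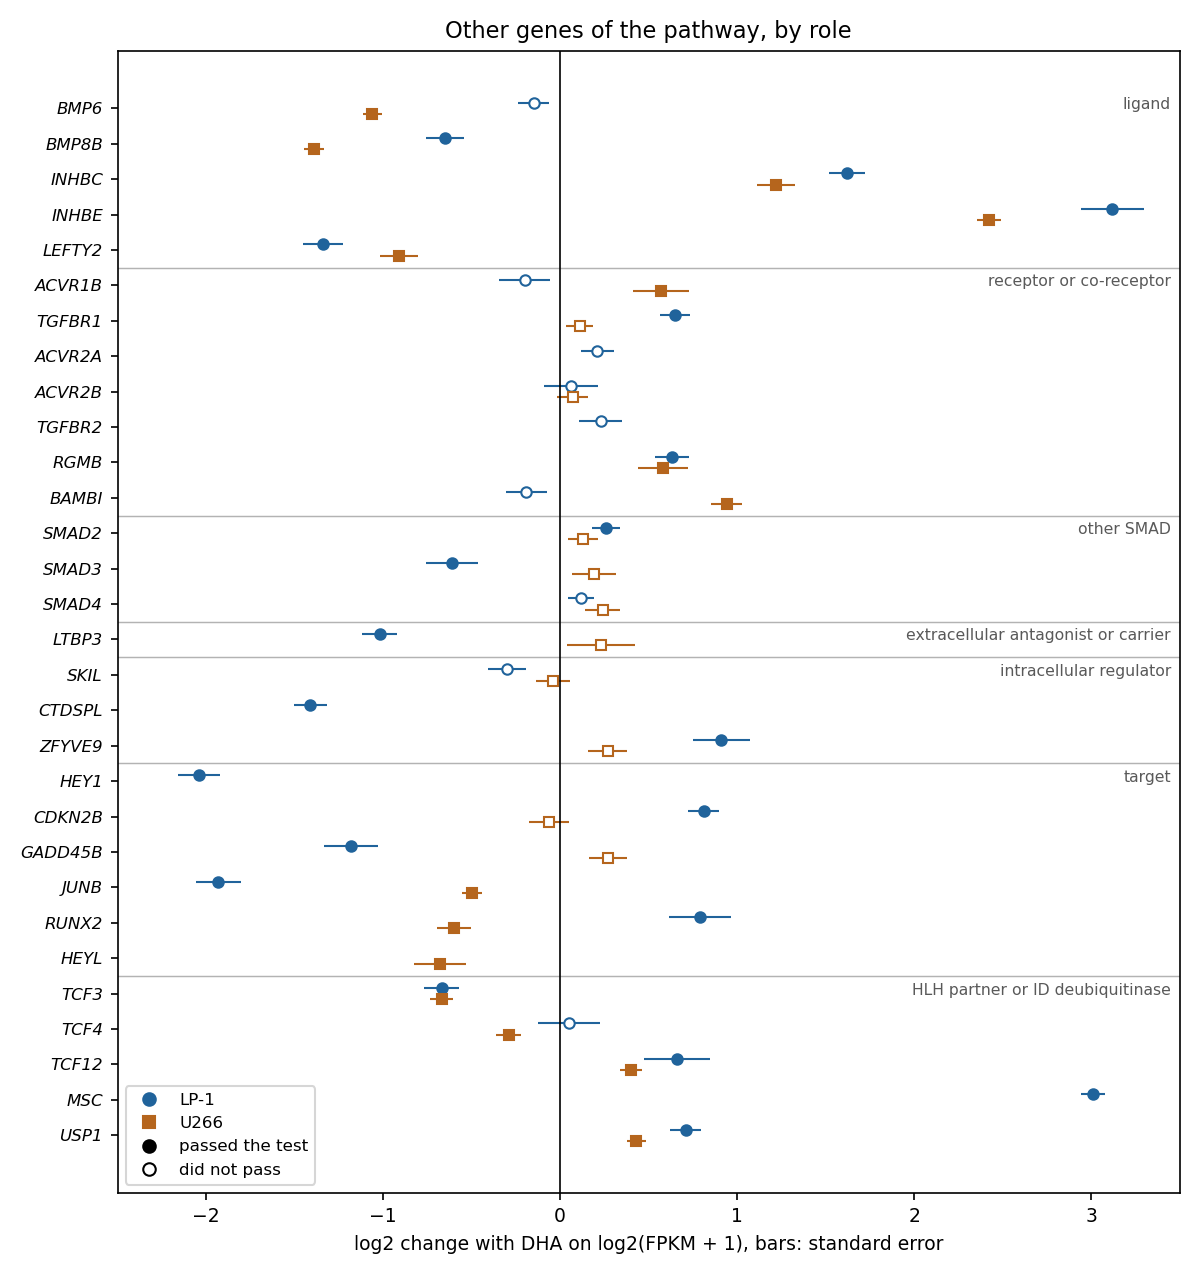
Log2 change with DHA (x axis, on log2(FPKM + 1), with standard errors) of the named genes of the pathway that were tested, grouped by role. Circles are LP-1 and squares U266, filled where limma's adjusted p was at or under 0.05. INHBE and INHBC lie to the right in both lines, TCF3, LEFTY2, BMP8B and JUNB to the left, and RUNX2 lies on opposite sides.

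Of the other SMADs, SMAD9, the third BMP SMAD, was under the filter, at 0.13 and 0.173 FPKM in LP-1. SMAD4, which all branches share, did not pass in LP-1 (0.12, limma adjusted p = 0.225) or in U266 (0.24, limma adjusted p = 0.0707), although it did in U266 without DMSO replicate 3 (0.34, limma adjusted p = 0.0227). Of the TGF-beta SMADs in LP-1, SMAD2 rose (0.26, limma adjusted p = 0.0387) and SMAD3 fell (-0.61, limma adjusted p = 0.0194). Both calls rest on few libraries. That of SMAD2 was lost without any one DHA library or DMSO replicate 1 (limma adjusted p = 0.102 to 0.152), with no filter (adjusted p = 0.0793) and with the replicate number as a block (adjusted p = 0.0953). That of SMAD3 was lost without the same libraries (limma adjusted p = 0.0616 to 0.0717) and with no filter (adjusted p = 0.0512). Neither passed in U266 (0.13 and 0.19, limma adjusted p = 0.239 and 0.256).

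Carriers and antagonists outside the cell gave 3 falls among 5 tested in LP-1 and 1 among 5 in U266. LTBP3, which holds latent TGF-beta in the matrix, fell in LP-1 by 1.02 (limma adjusted p = 0.000846) and did not pass in U266 (0.23, limma adjusted p = 0.384). The U266 DHA libraries were at 2.51, 1.86 and 4.25 FPKM, and without DHA replicate 3 the change was -0.02 (limma adjusted p = 0.926). Of regulators inside the cell, 20 were tested in LP-1 with 5 rises and 4 falls, and 18 in U266 with 1 rise and 3 falls. ZFYVE9, an anchor that brings SMAD2 and SMAD3 to receptors, rose in LP-1 (0.91, limma adjusted p = 0.00595) and in U266 passed only without DMSO replicate 1 (0.27, limma adjusted p = 0.0745 with it and 0.0475 without). CTDSPL, a small phosphatase, fell in LP-1 from 2.94 ± 0.207 to 0.48 ± 0.07 FPKM (SD, n = 3; -1.41, and -2.40 with a pseudocount of 0.1; limma adjusted p = 0.000247). CTDSPL was under 1 FPKM in every DHA library of LP-1 and entered the tests there only through DMSO libraries. SKIL, a SMAD co-repressor, stood at -0.30 in LP-1 (limma adjusted p = 0.0627), but the call was made once DMSO replicate 3 was left out (-0.39, adjusted p = 0.00502), with trimmed-mean scaling (-0.27, adjusted p = 0.0489) and with quantile normalization (-0.35, adjusted p = 0.0405).

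Targets beside the ID genes and inhibitory SMADs gave 2 rises and 5 falls among 10 tested in LP-1, and 3 falls among 7 in U266. HEY1, a repressor driven by BMP and Notch, fell in LP-1 from 6.21 ± 0.944 to 0.743 ± 0.107 FPKM (SD, n = 3; -2.04, limma adjusted p = 0.00017) and was under the filter in U266. HEY1 was under 1 FPKM in every DHA library of LP-1 and entered the tests there only through DMSO libraries. Its relative HEYL fell in U266 by 0.68 (limma adjusted p = 0.00449). JUNB, an AP-1 subunit, fell in LP-1 from 58.0 ± 9.79 to 14.4 ± 0.804 FPKM (SD, n = 3; -1.93, limma adjusted p = 0.000232) and in U266 by 0.50 (limma adjusted p = 8.35e-05). GADD45B, a stress-induced target of TGF-beta, fell in LP-1 by 1.18 (limma adjusted p = 0.00208). In U266 it did not pass (0.27, limma adjusted p = 0.0631), but it did without DHA replicate 1 (0.38, limma adjusted p = 0.0112) and among genes of at least 5 FPKM on average (adjusted p = 0.0399). CDKN2B, the cell cycle inhibitor p15, rose in LP-1 by 0.81 (limma adjusted p = 0.00119) and did not pass in U266 (-0.06, limma adjusted p = 0.698). The BMP targets HAMP, which encodes hepcidin, and ATOH8 were at or near 0 in LP-1, with means of at most 0.01 FPKM.

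Whether the response to DHA differed between lines was tested for 50 listed genes kept in both. Each line has its own table, normalized separately, and the DHA concentration given to each is not stated. A difference between lines thus cannot be told apart from one of table or concentration. The response was higher in U266 for 13, lower for 11 and did not pass for 26, so 48.0% were called against 34.7% of 8867 genes (16.1% higher and 18.6% lower). Nothing is read from this share either, since earlier results were known when the list was drawn up. RUNX2, a transcription factor of bone and lymphoid cells, rose in LP-1 by 0.79 and fell in U266 by 0.60, a difference of -1.38 (limma interaction adjusted p = 0.000317). Its LP-1 rise was lost without DHA replicate 1 or 2 (limma adjusted p = 0.0548 and 0.0532). BMP6 and CDKN2B followed at -0.91 and -0.87 (limma interaction adjusted p = 7.97e-05 and 0.0014). In the other direction GADD45B, JUNB and LTBP3 differed by 1.45, 1.44 and 1.24 (limma interaction adjusted p = 0.000238, 3.1e-05 and 0.00238), each with the lower change in LP-1. Without U266 DHA replicate 3 the difference of LTBP3 was 1.00 (limma interaction adjusted p = 0.00076). The count of 13 was 8 without LP-1 DHA replicate 1, DHA replicate 3 or DMSO replicate 1, and 7 with trimmed-mean scaling. The count of 11 was 6 without LP-1 DHA replicate 1 and 7 without DHA replicate 2 or 3. Trimmed-mean scaling moved the median difference over all genes from -0.02 to -0.15 and the share of calls higher in U266 from 46.4% to 28.4%. Of these 50 genes, 5 rose in both lines (INHBC, INHBE, RGMB, TCF12 and USP1), 9 fell in both, among them BMP8B, LEFTY2, JUNB and TCF3, and RUNX2 was the 1 gene called in opposite directions. The share of all 8867 genes called alike in both lines was not computed, so nothing is read from these counts. For the 10 members the changes in the lines stand side by side above, without a test of the difference.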

How the data were processed

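RNA was sequenced from 12 libraries. Per the labels' protocols, an RNeasy kit was used for extraction and a SMARTER mRNA kit for library construction. Values were FPKM deposited by the authors, 1 table per line. Mouse builds (GRCm38, mm10) appear in the submitters' processing notes, yet the genes of both tables are human; the aligner, the counter and the annotation are unstated. No column of per-sample values was left unused (0 in each table). Depth was recovered from steps of low FPKM values and GENCODE v29 exon lengths (94.4 to 98.4% of low values lay within 0.1 read of a whole number). Libraries were grouped by their titles. log2(FPKM + 1) was fitted within each line with limma 3.58.1 (R 4.3.3; lmFit, then eBayes using a variance trend). Tests were two-sided, p-values were adjusted by Benjamini-Hochberg over every gene tested, and 0.05 was the threshold. The lines were compared by the interaction contrast over 12 libraries. A count test was not used, since FPKM are not counts. Scripts were tested on simulated data. The members and gene lists were chosen with earlier results of these data known. Named were the 10 members, 17 fixed genes and, per line, the 5 largest rises and falls among called listed genes with separated groups, the 3 largest differences between lines in each direction, and the 3 nearest genes of each member. Other settings were no filter, a pseudocount of 0.1, a minimum mean of 5 FPKM, trimmed-mean scaling (TMM-style, trims of 30% and 5%), quantile normalization, no variance trend, a replicate block and leaving out each library.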

Additional observations from a re-analysis of the deposited data

Results flagged for a closer look

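For 15 named genes of the pathway the change with DHA differed between the lines by the limma interaction test, given here as the log2 change in U266 minus that in LP-1. Of 50 listed genes kept in both lines 48.0% were called, against 34.7% of 8867 genes. RUNX2, BMP6, CDKN2B, GADD45B, JUNB and LTBP3 met the naming rule of largest called differences. Nothing is read from the count. As stated above, a difference between lines cannot be told apart from one of table or DHA concentration. The difference was negative for RUNX2 (-1.38), BMP6 (-0.91), CDKN2B (-0.87), BMP8B (-0.74), INHBE (-0.69), ZFYVE9 (-0.64), TGFBR1 (-0.54) and INHBC (-0.41). BMP8B fell in both lines and further in U266, while INHBE and INHBC rose in both and further in LP-1. INHBE and INHBC entered the LP-1 tests only through DHA libraries. Over the settings that kept them, their differences ran from -1.75 to -0.48 and from -0.7 to -0.34. The difference was positive for LEFTY2 (0.43), ACVR1B (0.77), SMAD3 (0.79), BAMBI (1.13), LTBP3 (1.24), JUNB (1.44) and GADD45B (1.45). LEFTY2 and JUNB fell in both lines and further in LP-1. LEFTY2 entered the LP-1 tests only through DMSO libraries, and its difference ran from 0.18 to 1.54 over the settings that kept it. The calls of ZFYVE9, INHBC, LEFTY2 and ACVR1B were lost without 1 or another library (limma adjusted p = 0.051 to 0.0969), that of INHBC with the replicate number as a block (adjusted p = 0.0695), and that of LEFTY2 with trimmed-mean scaling or quantile normalization (0.33 and 0.18, adjusted p = 0.108 and 0.559).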

How the results depend on the processing

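Among the tested genes named, 9 values of 7 changes turned sign, none of them past the threshold in either setting. Without LP-1 DMSO replicate 3, TCF4 and ACVR2B in LP-1 went from 0.05 and 0.06 to -0.15 and -0.09. Without U266 DHA replicate 3, SKIL, CDKN2B and LTBP3 in U266 went from -0.04, -0.06 and 0.23 to 0.08, 0.04 and -0.02, and CDKN2B was at 0.03 without DMSO replicate 1. As each library was left out, these 5 ranged from -0.15 to 0.20 (TCF4), -0.09 to 0.19 (ACVR2B), -0.12 to 0.08 (SKIL), -0.14 to 0.04 (CDKN2B) and -0.02 to 0.42 (LTBP3). ACVR2B in U266 (0.07) was at -0.02 with trimmed-mean scaling or quantile normalization, and SMAD3 in U266 (0.19) at -0.01 with the latter. The cause was not tested. Of the members in U266, 3 turned sign: ID1 (-0.09) at 0.19 without DMSO replicate 2, SMAD7 (-0.08) at 0.01 without DHA replicate 1, and SMAD6 (0.02) at -0.01 to -0.23 under 5 settings. The listed genes called were 15 rises and 19 falls in LP-1 and 11 rises in U266, all tested genes 2504 rises and 2523 falls in LP-1 and 2203 rises in U266, and the differences between lines 13 higher and 11 lower in U266. Among genes of at least 5 FPKM on average, where fewer genes were tested, LP-1 had 8 rises and 10 falls in the list and 1664 and 1370 over all genes, U266 had 7 rises in the list, and 6 differences were higher and 5 lower. With no filter U266 had 6 rises in the list, and 20 differences were higher. Trimmed-mean scaling gave 7 listed rises and 1114 rises over all genes in U266, and 7 higher differences. The cause was not tested for no filter or scaling. As each library was left out, LP-1 list rises ranged from 6 to 19 and falls from 10 to 21, rises over all LP-1 genes from 1244 to 3488 and falls from 1511 to 3257, and differences from 8 to 15 higher and from 6 to 13 lower.

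Pairing of the libraries by replicate number was not clear in LP-1 and was not seen in U266. Correlations of deviations between same-numbered DMSO and DHA libraries were 0.074, 0.024 and 0.183 in LP-1 and -0.039, -0.083 and -0.025 in U266. In LP-1, DMSO replicates 1 and 3 correlated best with the DHA library of their own number, and DMSO replicate 2 with DHA replicate 1 (0.162). With the replicate number as a block, LP-1 had 14 list rises and 19 falls, U266 10 and 14, and the differences numbered 11 and 9. Over single listed genes, 628 of 672 values kept their direction and side of the threshold, 26 lost the call, 9 gained it and 9 turned sign. Of 200 values of the 10 members, 16 moved by more than the spread of their replicates. Few reads lie behind ID4 in both lines, SMAD6 in both lines and SMAD1 in U266. The same is true of ID1 in U266 (20 to 90 reads) and ID3 in the DHA libraries of LP-1 (28 to 32 reads).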

Other observations

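Several listed genes that were too low to be tested in U266 had their highest value in DHA replicate 3, as SMAD1 and SMAD6 did. They were chosen after their values were seen. MSC was at 2.51 FPKM in that library and at most 0.229 FPKM in the others, ATOH8 at 1.21 and at most 0.0638 FPKM, and ACVR1 at 1.04 and at most 0.34 FPKM. SMAD9 was at 0.969 and at most 0.133 FPKM, CTDSPL at 0.799 and at most 0.0668 FPKM, and HAMP at 0.668 and at most 0.122 FPKM.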
